A study of Arabidopsis thaliana with 5 samples.

Results

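The genes described here are 10 WRKY transcription factor genes linked to plant defence, WRKY30 (AT5G24110), WRKY33 (AT2G38470), WRKY38 (AT5G22570), WRKY40 (AT1G80840), WRKY46 (AT2G46400), WRKY51 (AT5G64810), WRKY53 (AT4G23810), WRKY54 (AT2G40750), WRKY62 (AT5G01900) and WRKY70 (AT3G56400), out of 67 loci with a numbered WRKY symbol and 33559 loci measured in all. They were picked by name with their levels in these libraries already known, so every level and ratio of theirs is a description and none is a test. RNA-seq was run on total RNA from whole roots of wild-type Arabidopsis thaliana, labelled Col-1, taken from plants cultivated for 5 weeks. Roots came from plants at low Mg (0.5 µM) for 4 d or 7 d, from plants at high Mg (10 mM) for 4 d or 7 d, and from a control that carries the 4-d label, 5 groups in all. The Mg supply of the control and the number of plants behind a library are missing from the labels, and the 7-d libraries have no control of their own day here. A group holds 1 library, so there is no replicate error and no p-value, and each difference below is one between single libraries.

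WRKY proteins bind DNA through a domain named after its WRKYGQK residues, which is followed by a zinc finger and recognises the W box. They are sorted into groups by the number of such domains and the form of the zinc finger. Many are switched on within minutes of an elicitor, wounding or salicylate, and because their own promoters often hold W boxes, members of the family regulate each other. The annotation notes place 7 of the 10 genes in group III (WRKY30, WRKY38, WRKY46, WRKY53, WRKY54, WRKY62 and WRKY70) and WRKY51 in group II-c. WRKY33 is a textbook member of group I and WRKY40 of group II-a. All 10 are protein-coding genes with 1 annotated transcript, of 2 to 5 exons and 947 to 2028 nt.

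The promoters are shown because these genes encode proteins that bind W boxes, and 7 of the 10 had their highest deposited level in the same library. The 300 bases before each annotated gene start were read from the RefSeq assembly TAIR10.1, and W boxes (TTGACC or TTGACT, on either strand, so that GGTCAA and AGTCAA count too) are in capitals. Each sequence runs 5′ to 3′ on the strand of its gene. For the genes with W boxes the windows are chr5:8154711-8155010 (WRKY30, minus strand), chr2:16107935-16108234 (WRKY33, plus strand), chr4:12393983-12394282 (WRKY53, minus strand) and chr5:352096-352395 (WRKY62, minus strand). WRKY46 (chr2:19044956-19045255, minus strand) and WRKY70 (chr3:20910624-20910923, minus strand) are set beside them, because they had high ratios of low to high Mg at 4 d without this motif in the window.
WRKY30: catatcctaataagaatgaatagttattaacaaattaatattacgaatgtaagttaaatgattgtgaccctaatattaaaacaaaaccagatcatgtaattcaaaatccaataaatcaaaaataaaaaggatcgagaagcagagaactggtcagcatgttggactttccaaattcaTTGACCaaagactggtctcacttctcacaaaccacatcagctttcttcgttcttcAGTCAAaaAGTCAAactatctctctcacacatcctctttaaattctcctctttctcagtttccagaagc
WRKY33: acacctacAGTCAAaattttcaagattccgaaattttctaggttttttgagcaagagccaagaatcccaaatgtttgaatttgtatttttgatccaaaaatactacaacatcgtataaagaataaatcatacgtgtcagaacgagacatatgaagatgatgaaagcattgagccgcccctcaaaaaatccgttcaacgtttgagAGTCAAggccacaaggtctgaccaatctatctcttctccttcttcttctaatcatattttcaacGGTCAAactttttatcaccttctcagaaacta
WRKY53: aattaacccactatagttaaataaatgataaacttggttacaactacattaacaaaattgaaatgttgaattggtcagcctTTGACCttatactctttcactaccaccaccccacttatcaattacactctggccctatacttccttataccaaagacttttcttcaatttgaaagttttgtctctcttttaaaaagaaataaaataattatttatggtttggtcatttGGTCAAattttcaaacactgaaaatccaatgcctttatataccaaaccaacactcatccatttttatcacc
WRKY62: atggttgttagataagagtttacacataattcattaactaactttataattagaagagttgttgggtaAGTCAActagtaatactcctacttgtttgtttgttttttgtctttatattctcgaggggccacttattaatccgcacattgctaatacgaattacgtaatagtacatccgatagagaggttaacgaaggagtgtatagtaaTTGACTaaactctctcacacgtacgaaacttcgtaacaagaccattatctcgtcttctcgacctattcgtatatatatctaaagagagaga
WRKY46: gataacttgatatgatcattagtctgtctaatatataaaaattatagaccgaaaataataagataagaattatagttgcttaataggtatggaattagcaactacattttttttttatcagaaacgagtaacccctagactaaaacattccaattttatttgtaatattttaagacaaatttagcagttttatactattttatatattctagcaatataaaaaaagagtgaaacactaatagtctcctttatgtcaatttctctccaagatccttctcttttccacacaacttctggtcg
WRKY70: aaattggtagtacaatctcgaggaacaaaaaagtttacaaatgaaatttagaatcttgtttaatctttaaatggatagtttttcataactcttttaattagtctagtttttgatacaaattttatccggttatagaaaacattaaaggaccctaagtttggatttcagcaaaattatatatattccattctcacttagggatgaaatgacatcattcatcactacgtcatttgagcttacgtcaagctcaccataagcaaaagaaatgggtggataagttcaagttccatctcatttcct

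WRKY30 and WRKY33 held 3 W boxes each in this window, and WRKY53 and WRKY62 held 2 each. The other 6 genes held 0. At least 1 W box was thus found in 4 of 10 windows, against 32.3% of 26694 nuclear coding genes and 43.9% of the 57 other WRKY genes. At least 2 were found in the same 4 windows, against 7.93% and 10.5%. In the 1000 bases before the gene start, 8 of the 10 genes held at least 1 W box, against 67.3% of all coding genes and 77.2% of the other WRKY genes, and WRKY38 and WRKY70 held 0. The letters TGACG (with CGTCA), which cannot lie within a W box but may overlap the end of one, and which are known as the core of TGA factor sites, occurred 3 times in the 300-base window of WRKY51, 2 times in that of WRKY70 and 1 time in that of WRKY40, and 21.3% of all coding genes held at least 1. The G-box CACGTG, which can overlap the end of a TGACG copy, was found in 1 window, that of WRKY51, and in 7.18% of all.

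**Figure D1:**
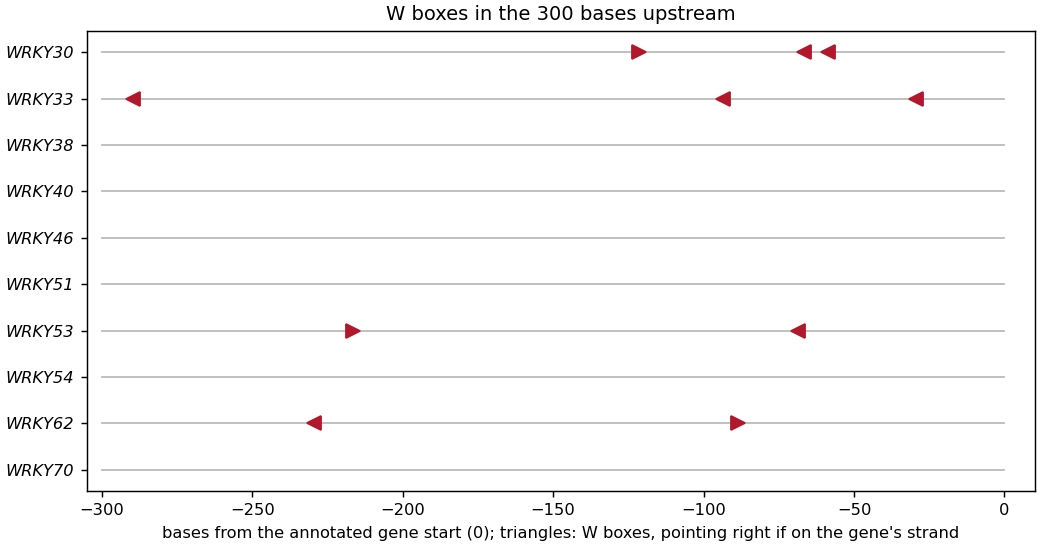
Positions of W boxes (triangles, pointing right when the box lies on the gene's own strand) in the 300 bases before the annotated start of each of the 10 genes; the horizontal axis is the distance from the gene start in bases. WRKY30 and WRKY33 hold 3 boxes each, WRKY53 and WRKY62 hold 2 each, and the other 6 windows hold 0.

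The values are FPKM (fragments scaled to transcript length and to the mapped fragments of the library), so levels may be compared between genes. From the lowest values of long genes, the smallest library, low Mg at 7 d, was estimated to hold 6971124 fragments and the largest, low Mg at 4 d, 12950700. Of the lowest values of these genes, 63.8% to 74.5% lay within 0.15 of a whole number on that estimate, so the fragment numbers given are approximate. The 10 root markers, among them CASP1 of the endodermis and EXPA7 of root hairs, were at 5 FPKM or more in all 5 libraries (summed 766 to 2232 FPKM). Most of the spread of that sum came from NRT2.1, at 1341 FPKM in the control and 8.37 to 135 FPKM in the other libraries. The 10 photosynthesis genes of the shoot summed to between 34.0 and 63.0 FPKM, with 1 to 3 of them at 5 FPKM or more. As these are whole roots, fewer cells of a type and less RNA per cell cannot be told apart. Of the sum over all loci, 82.3% in the control but 15.6% in high Mg at 7 d came from AT2G01021, a very short locus. With the sums made equal (TPM rescaling), the median gene had a log2 ratio of -0.69 for low against high Mg at 4 d and of 1.04 for high Mg against the control, and of 1.76 and 1.18 for 7 d against 4 d in low and high Mg. For log2 ratios 1 was added to each level, after any rescaling. The sums over nuclear loci ran from 987532 FPKM (high Mg at 7 d) to 6.67e+06 FPKM (control). The added 1 therefore weighed most in the control under TPM rescaling, where it moves ratios of low genes by itself. Levels, and the order of libraries within a gene, are given below as deposited. Under TPM rescaling the libraries of 7 d stand higher against those of 4 d, and high Mg at 4 d higher against the control, for nearly all genes. The 10 reference genes listed shared these shifts. Their median log2 ratio for low against high Mg at 4 d was -0.01 as deposited and -0.75 under TPM rescaling. For high Mg against the control it was -0.04 and 1.22. For 7 d against 4 d it was -0.07 and 1.99 in low Mg, and -0.36 and 1.08 in high Mg.

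The 10 genes together were highest in low Mg at 4 d as deposited, but in high Mg at 7 d under TPM rescaling. Their sum stayed highest in low Mg at 4 d under median-of-ratios scaling (488, against 237 in high Mg at 7 d). The same held without AT2G01021 (440 against 268). As deposited, their summed level was 273 FPKM in the control, 509 FPKM in low Mg at 4 d, 151 FPKM in high Mg at 4 d, 162 FPKM in low Mg at 7 d and 223 FPKM in high Mg at 7 d. WRKY33 alone made up between 33.7% and 43.0% of these sums. Low Mg at 4 d was the highest of the 5 libraries for 7 of the 10 genes, as it was for 15.8% of 16410 coding genes with 5 FPKM or more somewhere. Under TPM rescaling that library was the highest for 1 gene and high Mg at 7 d for 7. On that scale 10014 of 16081 nuclear genes were 2-fold higher at 7 d than at 4 d in high Mg. The share of all genes highest in each library was not computed there, so nothing is read from this count. Median-of-ratios scaling, and rescaling without AT2G01021, left low Mg at 4 d the highest for 8. As deposited, the exceptions were WRKY54, whose control level was as high, and WRKY38 and WRKY62, which were highest in high Mg at 7 d. The lowest library was high Mg at 4 d for 5 genes and the control for 3 (WRKY38, WRKY40 and WRKY46). Of the 16410 coding genes, 12.3% were lowest in high Mg at 4 d and 17.9% in the control.

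**Figure D2:**
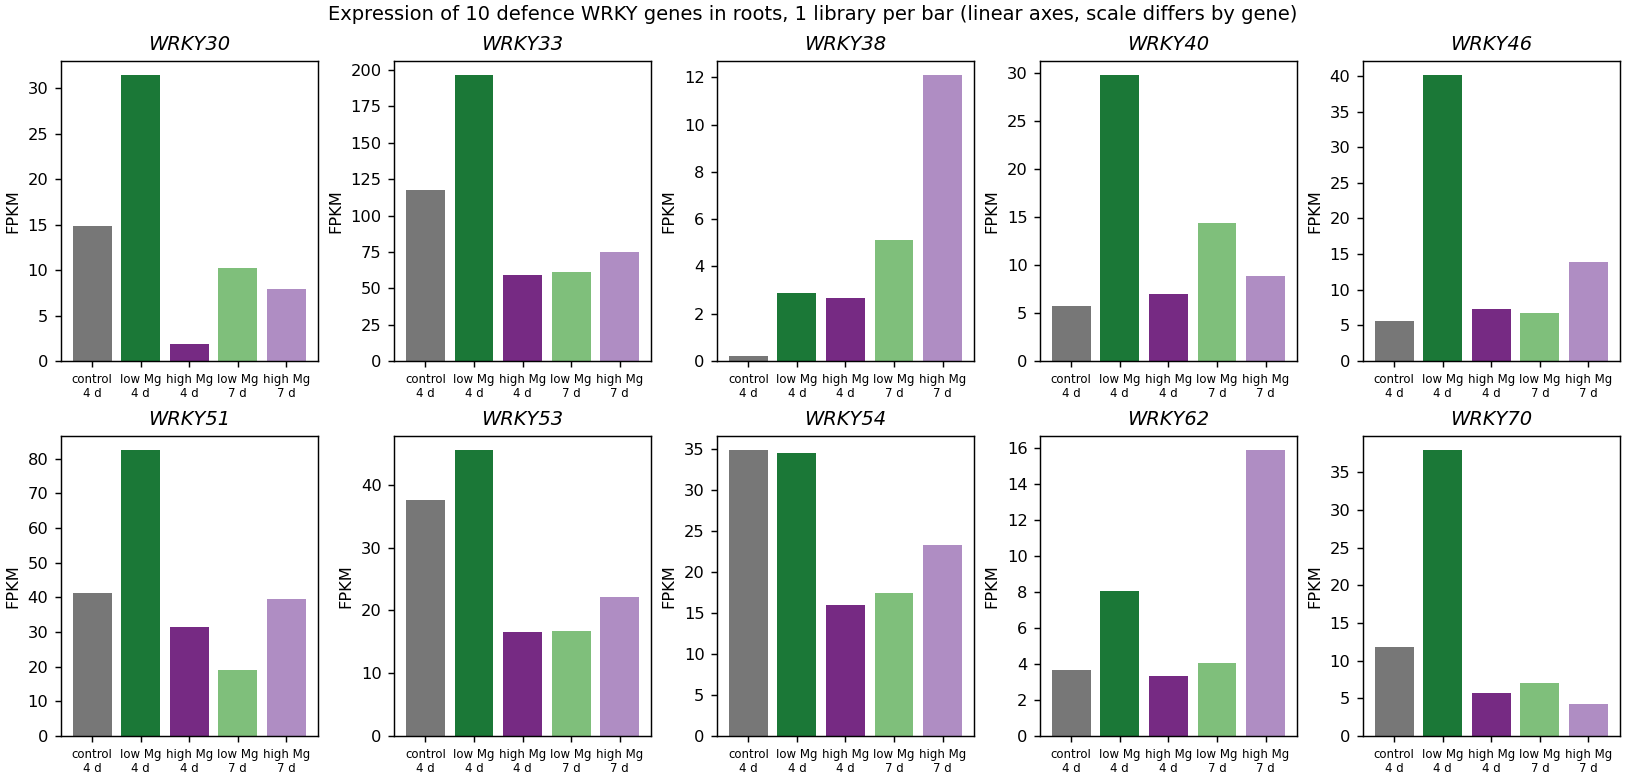
Level of each of the 10 genes in FPKM (vertical axes, linear from 0, with a scale of their own per gene) in the 5 libraries, 1 bar per library and no replicates. On the scale as deposited the second bar, low Mg at 4 d, is the tallest in 7 of the panels. The last, high Mg at 7 d, is the tallest for WRKY38 and WRKY62. Under TPM rescaling, which raises most genes at 7 d against 4 d, the last bar would be the tallest for 7 genes.

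WRKY33 (chr2:16108235-16110766, plus strand), a substrate of the MAP kinases MPK3 and MPK6 and an activator of camalexin synthesis, was the most abundant of the 10 in every library. It stood at 117 FPKM in the control, 196 FPKM in low Mg at 4 d, 59.3 FPKM in high Mg at 4 d, 61.2 FPKM in low Mg at 7 d and 75.3 FPKM in high Mg at 7 d. Low Mg at 4 d stood apart as the highest library, and high Mg at 4 d and low Mg at 7 d were close to each other. Low Mg was 3.31-fold above high Mg at 4 d, and 1.67-fold above the control. Its annotated gene overlaps AT2G38480 by 26 bases on the other strand, a gene at 5.23 to 11.2 FPKM, and an annotated antisense RNA that is not analysed here. Whether the libraries kept strand is not given in the sources used here.

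WRKY40 (chr1:30383561-30385499, plus strand), a repressor that acts with WRKY18 and WRKY60 in defence and abscisic acid signalling, stood at 5.70 FPKM in the control, 29.8 FPKM in low Mg at 4 d, 7.04 FPKM in high Mg at 4 d, 14.4 FPKM in low Mg at 7 d and 8.90 FPKM in high Mg at 7 d. On each day low Mg was the higher library, 4.23-fold at 4 d and 1.62-fold at 7 d. High Mg and the control at 4 d differed by 1.23-fold, with a counting interval that includes 1 (95%, up to 1.65-fold). Its annotated end overlaps AT1G80850 by 51 bases on the other strand, a gene at 4.51 to 8.35 FPKM. The counting intervals rest on the approximate fragment numbers and cover counting error only.

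WRKY46 (chr2:19043411-19044955, minus strand), known in roots as a repressor of the malate channel gene ALMT1, and in leaves for a part in basal resistance, stood at 5.61 FPKM in the control, 40.1 FPKM in low Mg at 4 d, 7.35 FPKM in high Mg at 4 d, 6.78 FPKM in low Mg at 7 d and 13.9 FPKM in high Mg at 7 d. Its highest library exceeded the next by 2.89-fold, so a peak in low Mg at 4 d is its main feature. Low Mg at 4 d was 7.14-fold above the control and 5.45-fold above high Mg. At 7 d high Mg was the higher library, by 2.04-fold.

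WRKY70 (chr3:20908711-20910623, minus strand), a group III factor at the crossing of salicylate and jasmonate signalling, had the same main peak. Its levels were 11.8 FPKM in the control, 37.9 FPKM in low Mg at 4 d, 5.74 FPKM in high Mg at 4 d, 7.06 FPKM in low Mg at 7 d and 4.23 FPKM in high Mg at 7 d. The highest library was 3.20-fold above the next, and the 3 libraries other than low Mg and the control at 4 d lay within 4.23 to 7.06 FPKM. WRKY54 (chr2:17000419-17002528, minus strand), which acts with WRKY70 in restraining senescence and salicylate build-up, was flatter. It stood at 34.9 FPKM in the control, 34.5 FPKM in low Mg at 4 d, 16.0 FPKM in high Mg at 4 d, 17.5 FPKM in low Mg at 7 d and 23.3 FPKM in high Mg at 7 d. The control and low Mg at 4 d could not be told apart by counting error (low Mg at 0.99-fold, 95% interval up to 1.11-fold), and the whole range was 2.18-fold. WRKY54 was therefore below WRKY70 in 1 of the 5 libraries, low Mg at 4 d, and above it in the other 4.

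WRKY53 (chr4:12392370-12393982, minus strand), best known for promoting leaf senescence, went through the libraries much as WRKY33 and WRKY54 did. It stood at 37.6 FPKM in the control, 45.5 FPKM in low Mg at 4 d, 16.5 FPKM in high Mg at 4 d, 16.8 FPKM in low Mg at 7 d and 22.1 FPKM in high Mg at 7 d. The control and low Mg at 4 d were the high pair, 1.21-fold apart, and the other 3 libraries the low ones. Its annotated end overlaps 3xHMG-box2 (AT4G23800) by 341 bases on the other strand, and that gene stood at 46.1 to 66.6 FPKM, so some fragments of WRKY53 may be uncertain. The highest level of that neighbour lay in high Mg at 4 d, where WRKY53 was lowest.

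WRKY30 (chr5:8153115-8154710, minus strand), a group III gene induced by reactive oxygen, had the widest range of the 10 apart from WRKY38. It stood at 14.8 FPKM in the control, 31.4 FPKM in low Mg at 4 d, 1.87 FPKM in high Mg at 4 d, 10.2 FPKM in low Mg at 7 d and 7.91 FPKM in high Mg at 7 d. High Mg at 4 d stood apart on the low side, at about 29.5 fragments against about 524 in low Mg. Low Mg was 16.8-fold above high Mg at 4 d and 1.29-fold at 7 d.

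WRKY51 (chr5:25908247-25909881, plus strand), which acts with WRKY50 where salicylate represses jasmonate responses, was the second most abundant of the 10 in all 5 libraries. It stood at 41.2 FPKM in the control, 82.3 FPKM in low Mg at 4 d, 31.4 FPKM in high Mg at 4 d, 19.1 FPKM in low Mg at 7 d and 39.5 FPKM in high Mg at 7 d. As deposited, its 2 low Mg libraries were its highest and its lowest, while under TPM rescaling the log2 ratio of 7 d to 4 d was 0.08. Low Mg was 2.62-fold above high Mg at 4 d, while at 7 d high Mg was 2.06-fold above low Mg.

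WRKY38 (chr5:7495455-7496990, minus strand) and WRKY62 (chr5:350925-352095, minus strand), closely related group III genes that limit basal defence and are induced through salicylate and NPR1, had the lowest sums over the 5 libraries and were highest in high Mg at 7 d. WRKY62 stood at 3.68 FPKM in the control, 8.06 FPKM in low Mg at 4 d, 3.35 FPKM in high Mg at 4 d, 4.07 FPKM in low Mg at 7 d and 15.9 FPKM in high Mg at 7 d. WRKY38 stood at 0.217 FPKM in the control, 2.86 FPKM in low Mg at 4 d, 2.68 FPKM in high Mg at 4 d, 5.10 FPKM in low Mg at 7 d and 12.1 FPKM in high Mg at 7 d. At 7 d high Mg was 3.91-fold above low Mg for WRKY62 and 2.37-fold for WRKY38. The control level of WRKY38 rests on about 3 fragments, and low Mg at 4 d was 13.2-fold above it, with a 95% counting interval of 4.53-fold to 70.6-fold. Between low and high Mg at 4 d WRKY38 differed by 1.07-fold, within counting error.

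The 4-d libraries of low and high Mg set the ends of the Mg range side by side. All 10 genes were on the low Mg side of it, although under TPM rescaling WRKY38 turned and 9 of 10 remained above 0. At least a 2-fold difference in log2((FPKM + 1)/(FPKM + 1)) was reached by 9 genes, where 3.69% of 15837 nuclear genes with 5 FPKM or more in at least 1 of the libraries were 2-fold higher and 1.8% 2-fold lower. Under TPM rescaling 4 of the 9 stayed past 2-fold (WRKY30, WRKY40, WRKY46 and WRKY70), and with a pseudocount of 5 FPKM 7 did. Of the 15837 genes, 216 and 424 were 2-fold higher in these 2 settings. WRKY38 did not pass that minimum of 5 FPKM. The members were chosen with this contrast known, so nothing is read from the share. The log2 ratios were 3.50 for WRKY30, 2.53 for WRKY70, 2.30 for WRKY46, 1.94 for WRKY40, 1.71 for WRKY33, 1.41 for WRKY53, 1.36 for WRKY51, 1.06 for WRKY54, 1.06 for WRKY62 and 0.07 for WRKY38. Their median was 1.56, against -0.02 for all genes.

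Low Mg and high Mg at 4 d were each also set against the control library, which both comparisons share. WRKY46, WRKY40, WRKY70 and WRKY30 were 2-fold or more above the control in low Mg, at log2 ratios of 2.63, 2.20, 1.60 and 1.03, where 2.16% of 15873 genes were 2-fold higher and 1.67% lower. WRKY51 (0.98), WRKY62 (0.95) and WRKY33 (0.74) were short of 2-fold in the log2 ratio, and WRKY53 (0.27) and WRKY54 (-0.01) were near the control. On FPKM without the added 1, WRKY62 was 2.19-fold above the control. WRKY38 (1.67) did not pass the filter. In high Mg, WRKY30 (-2.46), WRKY53 (-1.14) and WRKY54 (-1.08) were 2-fold or more below the control. Of 15962 genes, 3.83% were 2-fold lower and 2.52% were higher. TPM rescaling turned WRKY53 to 0.09 and WRKY54 to 0.14, on a scale where the median of all genes was 1.04. It left WRKY30 at -0.94, a value in which the 1 added after rescaling has a part beside the rescaling itself. WRKY33 (-0.97), WRKY70 (-0.93), WRKY51 (-0.38) and WRKY62 (-0.10) were lower as deposited, short of 2-fold in the log2 ratio. Without the added 1, WRKY70 was 2.06-fold lower. TPM rescaling turned WRKY33 to 0.29, WRKY70 to 0.16 and WRKY51 to 0.80. WRKY40 (0.26) and WRKY46 (0.34) were slightly higher as deposited.

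The genes thus differed, on the deposited scale, in which library stood apart at 4 d. For WRKY40 and WRKY46, high Mg was close to the control and low Mg was high, while TPM rescaling put high Mg at log2 ratios of 0.95 and 1.001 to the control. For WRKY53 and WRKY54, low Mg was close to the control and high Mg was lower, on the deposited scale. For WRKY30, WRKY33, WRKY51 and WRKY70 the control lay between low and high Mg as deposited, and under TPM rescaling it was below both for all of these but WRKY30.

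At 7 d the order of low and high Mg was the other way for most of the 10. WRKY62 (-1.74), WRKY38 (-1.10) and WRKY51 (-1.01) were 2-fold or more lower in low than in high Mg, where 3.21% of 15684 genes were and 2.54% were higher. WRKY46 (-0.93), WRKY54 (-0.39), WRKY53 (-0.38) and WRKY33 (-0.29) were lower, short of 2-fold in this log2 ratio. On FPKM without the added 1, WRKY46 was 2.04-fold lower in low Mg. WRKY40 (0.64), WRKY70 (0.63) and WRKY30 (0.33) were higher in low Mg, as at 4 d. The counting interval of the WRKY30 difference included 1 (95%, up to 1.72-fold). The photosynthesis genes of the shoot were also mostly higher in high Mg at 7 d, with a median log2 ratio of -0.57 over all 10. Of the 3 that passed the filter, PSBO1 and RCA were 2-fold or more higher in high Mg. GLDP1 went the other way, at 31.9 FPKM in high Mg and 40.7 FPKM in low Mg. The 10 summed to 63.0 FPKM in high Mg and 51.8 FPKM in low Mg, of which GLDP1 was the largest part. In these libraries 0 and 1 of the 10 were listed at 0. The part of these genes in the result was not tested.

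For each of the 10 genes the log2 ratio of low to high Mg was lower at 7 d than at 4 d, with differences from -1.17 (WRKY38) to -3.23 (WRKY46). The median difference of the 10 was -1.95, against 0.02 for 16678 nuclear genes, of which 6.66% were at -1 or below. The sign itself turned from plus to minus for 7 of 10, against 23.9% of all genes. These 4 libraries do not include the control.

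**Figure D3:**
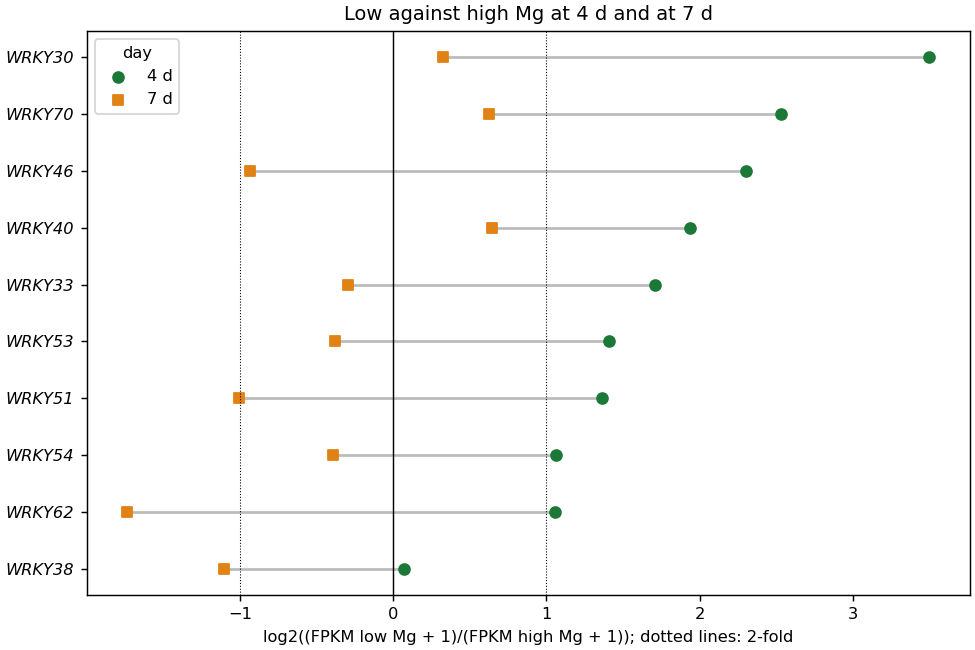
Log2 ratio of low to high Mg for each of the 10 genes (horizontal axis, log2((FPKM + 1)/(FPKM + 1)), 1 library each) at 4 d (circles) and 7 d (squares), with dotted lines at 2-fold. Every square lies to the left of its circle, and 7 squares lie below 0 while all circles lie above it, on the scale as deposited (TPM rescaling puts the WRKY38 circle below 0).

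As deposited, the median log2 ratio of 7 d to 4 d over the 10 genes was -1.46 in low Mg and 0.46 in high Mg, and under TPM rescaling 0.60 and 1.80. From 4 d to 7 d in low Mg, WRKY46 (-2.40), WRKY70 (-2.27), WRKY51 (-2.05), WRKY33 (-1.66), WRKY30 (-1.53) and WRKY53 (-1.39) were 2-fold or more lower at 7 d, where 12.9% of 16182 genes were and 4.03% were higher, but under TPM rescaling only 2 of all 10 genes stayed below 0 while the median of all genes was 1.76. WRKY38 alone was higher at 7 d (0.66). In high Mg, WRKY62 (1.96), WRKY38 (1.83) and WRKY30 (1.64) were 2-fold or more higher at 7 d, as 4.65% of 16081 genes were while 11.3% were lower. WRKY70 (-0.37) was the only 1 of the 10 that was lower at 7 d in high Mg, and TPM rescaling turned it. The 4-d and 7-d libraries carry different processing notes, so day and processing cannot be told apart.

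Of the other 57 WRKY loci, 41 reached 5 FPKM in at least 1 library. In low against high Mg at 4 d, 8 of the 39 that passed the filter were 2-fold or more higher in low Mg and 0 lower, with a median log2 ratio of 0.16. Under TPM rescaling 2 were 2-fold higher and 1 was 2-fold lower, where 216 of 15837 nuclear genes were higher and 1396 lower, and the median turned to -0.50. The highest as deposited were WRKY59 (154 against 33.4 FPKM, log2 ratio 2.18), WRKY45 (30.8 against 6.94 FPKM, 2.00), a regulator of phosphate uptake, WRKY28 (12.8 against 2.47 FPKM, 1.99), an activator of the salicylate gene ICS1, WRKY18 (20.5 against 7.60 FPKM, 1.32), the partner of WRKY40, and WRKY75 (28.1 against 10.9 FPKM, 1.29), of the phosphate starvation response. Against the control, 2 of 40 were 2-fold or more higher in low Mg, WRKY18 (1.47) and WRKY59 (1.09), and WRKY29, a factor of flagellin signalling, was 2-fold or more lower (-1.10). In high Mg 0 of 40 were 2-fold higher and 5 were 2-fold lower as deposited, WRKY45 (-2.58), WRKY28 (-1.39), WRKY58 (-1.13), WRKY59 (-1.09) and WRKY29 (-1.07). Under TPM rescaling 20 were 2-fold higher and 1 lower, where 8744 of 15962 nuclear genes were higher and 166 lower.

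At 7 d, WRKY58 (13.4 against 5.74 FPKM) was the 1 of 38 other WRKY genes that was 2-fold higher in low Mg, and WRKY29 (-1.52) and WRKY48 (-1.27) were lower. The other 5 loci noted as group III were mostly silent: WRKY64 and WRKY67 were listed at 0 in all 5 libraries, WRKY66 and WRKY55 stayed under 5 FPKM, and WRKY41 stood at 3.73 to 11.7 FPKM, highest in low Mg at 4 d.

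**Figure D4:**
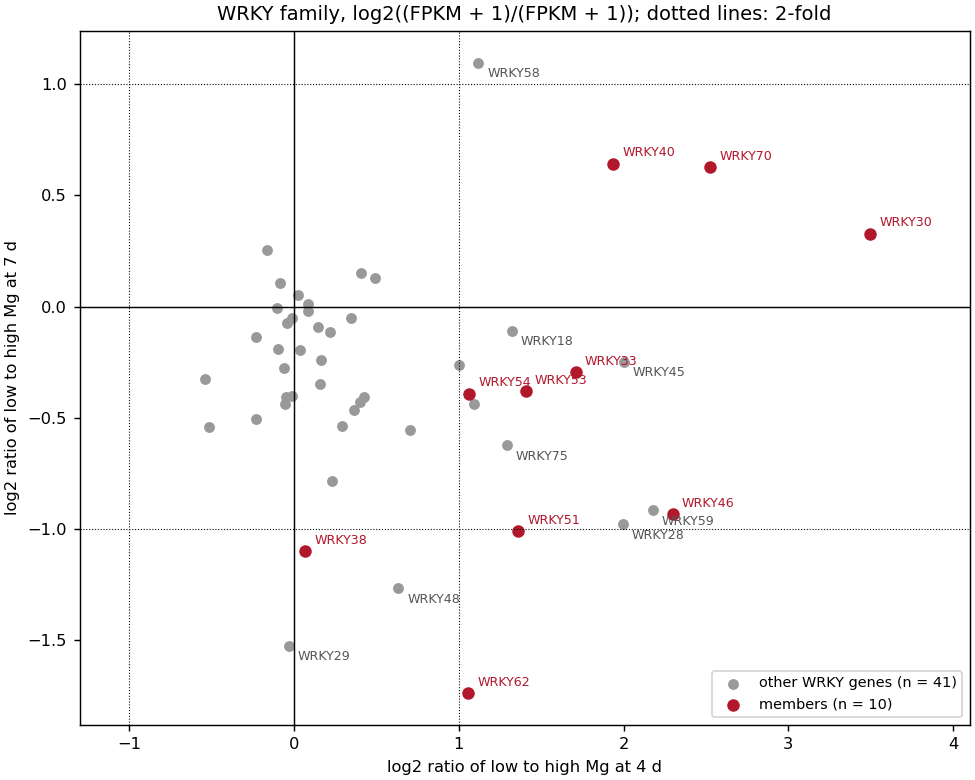
Log2 ratio of low to high Mg at 4 d (horizontal axis) and at 7 d (vertical axis) for the 10 genes (red) and the 41 other WRKY genes with 5 FPKM or more in at least 1 library (grey), 1 library per group and day, with dotted lines at 2-fold. The 10 genes lie right of 0 as deposited (WRKY38 turns under TPM rescaling), 7 of them below the horizontal line at 0, while most other WRKY genes lie near the centre; WRKY28 and WRKY59 lie close to WRKY46.

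Genes that act upstream of WRKY33 or bind WRKY proteins were partly high in the same library. Of 10 MAP kinase cascade genes, 3 were 2-fold or more higher in low than in high Mg at 4 d and 0 were 2-fold lower (median log2 ratio 0.40). Under TPM rescaling 1 was 2-fold higher and the median turned to -0.29. MPK11 stood at 7.48 against 0.671 FPKM, MKK9, a kinase kinase that activates MPK3 and MPK6, at 30.0 against 9.65 FPKM, and MPK3 at 184 against 79.9 FPKM. MPK6, by contrast, stood at 88.5 against 74.7 FPKM, and MPK4, a brake on defence, at 57.3 against 58.9 FPKM. In the control MPK11 stood at 8.05 FPKM, its highest level, MKK9 at 5.68 FPKM and MPK3 at 83.6 FPKM. Against the control, 2 of the 10 genes were 2-fold or more higher in low Mg. In high Mg 1 was 2-fold lower and 0 higher as deposited, while under TPM rescaling 5 were higher and 0 lower. At 7 d 0 of 9 reached 2-fold either way (median -0.14).

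VQ proteins bind WRKY domains and alter their activity. All 4 of those listed were on the low Mg side at 4 d and 3 were 2-fold or more higher (median 1.62), of which TPM rescaling left 1 (median 0.72). SIB1, a partner of WRKY33, stood at 6.83 FPKM in the control, 17.2 FPKM in low Mg at 4 d, 1.60 FPKM in high Mg at 4 d, 1.64 FPKM in low Mg at 7 d and 1.88 FPKM in high Mg at 7 d. Its paralog SIB2 stood at 14.4 against 3.86 FPKM at 4 d, and JAV1, a repressor of jasmonate defence, at 24.5 against 7.60 FPKM. MKS1, which links MPK4 to WRKY33, stood at 19.4 against 10.3 FPKM. In the control SIB2 stood at 4.39 FPKM, JAV1 at 21.0 FPKM and MKS1 at 13.1 FPKM. At 7 d 0 of the 2 that passed the filter reached 2-fold.

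Of the salicylate genes, several of which are known to act above or below these WRKY genes, 11 passed the filter in low against high Mg at 4 d. As deposited, 10 of the 11 had a log2 ratio above 0, 6 were 2-fold or more higher and 0 were 2-fold lower (median 1.07). Under TPM rescaling 3 were 2-fold or more higher (median 0.27). The largest were the regulators CBP60G (57.2 against 9.65 FPKM, log2 ratio 2.45) and SARD1 (26.5 against 5.25 FPKM, 2.14) and the salicylate synthesis gene PBS3 (7.60 against 0.732 FPKM, 2.31). In the control CBP60G stood at 76.9 FPKM, its highest level, SARD1 at 11.9 FPKM and PBS3 at 6.12 FPKM. Against the control, 1 of 12 was 2-fold higher in low Mg and 1 was 2-fold lower (under TPM rescaling 2 and 0). In high Mg 0 of 11 were 2-fold higher and 4 were 2-fold lower, while under TPM rescaling 3 were higher and 1 lower. At 7 d 0 of 9 had a log2 ratio above 0, and 1 was 2-fold or more lower in low Mg, ICS1 (4.34 against 11.2 FPKM, -1.19), of salicylate synthesis. The late defence marker PR1 was listed at 0 in all 5 libraries. PR2 stood at 5.53 FPKM in the control and at 0.147 FPKM or less in the other 4, and neither was highest in low Mg at 4 d.

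All 10 immunity and camalexin genes that passed the filter were on the low Mg side at 4 d as deposited. Of these 5 were 2-fold or more higher (median 1.11), and 3 were under TPM rescaling (median 0.31). CYP71A12, of camalexin synthesis, stood at 246 against 5.27 FPKM, the receptor kinase gene FRK1 at 7.00 against 0.680 FPKM, and CYP81F2, of indole glucosinolate conversion, at 39.8 against 7.91 FPKM. CYP71A12 and CYP71A13 are close paralogs, between which fragments can be shared. Against the control, 0 of 11 of these genes reached 2-fold in low Mg (median -0.02), and 7 of 11 were 2-fold lower in high Mg as deposited (median -1.29), while under TPM rescaling 1 was (median -0.03). At 7 d 2 of 9 had a log2 ratio above 0. CYP71A12 (1.19) was 2-fold or more higher in low Mg, and PER4 (-1.33) and NHL10 (-1.17) were 2-fold or more lower. PAD3, the last step of camalexin synthesis and a known target of WRKY33, stood at 15.4 FPKM in the control, 10.2 FPKM in low Mg at 4 d, 6.82 FPKM in high Mg at 4 d, 8.71 FPKM in low Mg at 7 d and 4.63 FPKM in high Mg at 7 d. Unlike WRKY33, it was highest in the control.

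Genes that respond within minutes to touch and wounding were high in the same library as the 10. Of 14 such genes 13 passed the filter, and 12 were 2-fold or more higher in low than in high Mg at 4 d, with 0 lower (median 1.89), and 7 were under TPM rescaling (median 1.04). Their summed level was 579 FPKM in the control, 1604 FPKM in low Mg at 4 d, 444 FPKM in high Mg at 4 d, 528 FPKM in low Mg at 7 d and 430 FPKM in high Mg at 7 d. CAF1A, an mRNA deadenylase gene, stood at 122 against 13.9 FPKM, the zinc finger gene ZAT10 at 242 against 29.8 FPKM and CML37, a calmodulin-like gene, at 38.1 against 4.50 FPKM. In the control ERF109 alone was listed at 0. Heat shock genes, in contrast, were highest in the control, at 581 FPKM summed over 6 genes against 77.3 FPKM in low Mg and 44.4 FPKM in high Mg at 4 d, and at 8.32 and 7.58 FPKM at 7 d. The part of handling, touch or heat in the WRKY levels was not tested.

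Genes with the profile nearest to that of the 10 were sought among 16098 nuclear coding genes outside the family, by the root-mean-square distance of log2(FPKM + 1), centred per gene over the 5 libraries, to the median profile of the 10. The nearest was AT1G72940, annotated as a TIR domain protein, at a distance of 0.09, and the tenth lay at 0.19, against a median of 0.63 over all genes searched. Named genes among the 10 nearest were PUP7, a purine permease, ERF5, an ethylene response factor, and ZAT11, a zinc finger gene. AT3G01830 is annotated as a calcium-binding EF-hand protein, AT2G32140 as a transmembrane receptor and AT1G33590 as a leucine-rich repeat protein. AT1G64065 is annotated as a late embryogenesis abundant hydroxyproline-rich glycoprotein, AT1G55450 as a methyltransferase and AT5G48175 as uncharacterized. ERF5 stood at 29.6 FPKM in the control, 74.0 FPKM in low Mg at 4 d, 19.1 FPKM in high Mg at 4 d, 23.8 FPKM in low Mg at 7 d and 23.8 FPKM in high Mg at 7 d. Distances over 5 libraries describe these libraries alone.

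Among the 10 themselves, the closest profiles were those of WRKY33 and WRKY53 (distance 0.16) and of WRKY53 and WRKY54 (0.17). WRKY40 and WRKY46 were 0.55 apart. WRKY33 lay nearest to the median profile (0.12), with 2 of the 16098 other genes nearer, and WRKY38 farthest (1.38). That median was made from the 10 genes, WRKY33 among them, so its rank against outside genes is not like for like. The related pair WRKY38 and WRKY62 were 0.79 apart, and WRKY54 and WRKY70 were 0.76 apart.

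**Figure D5:**
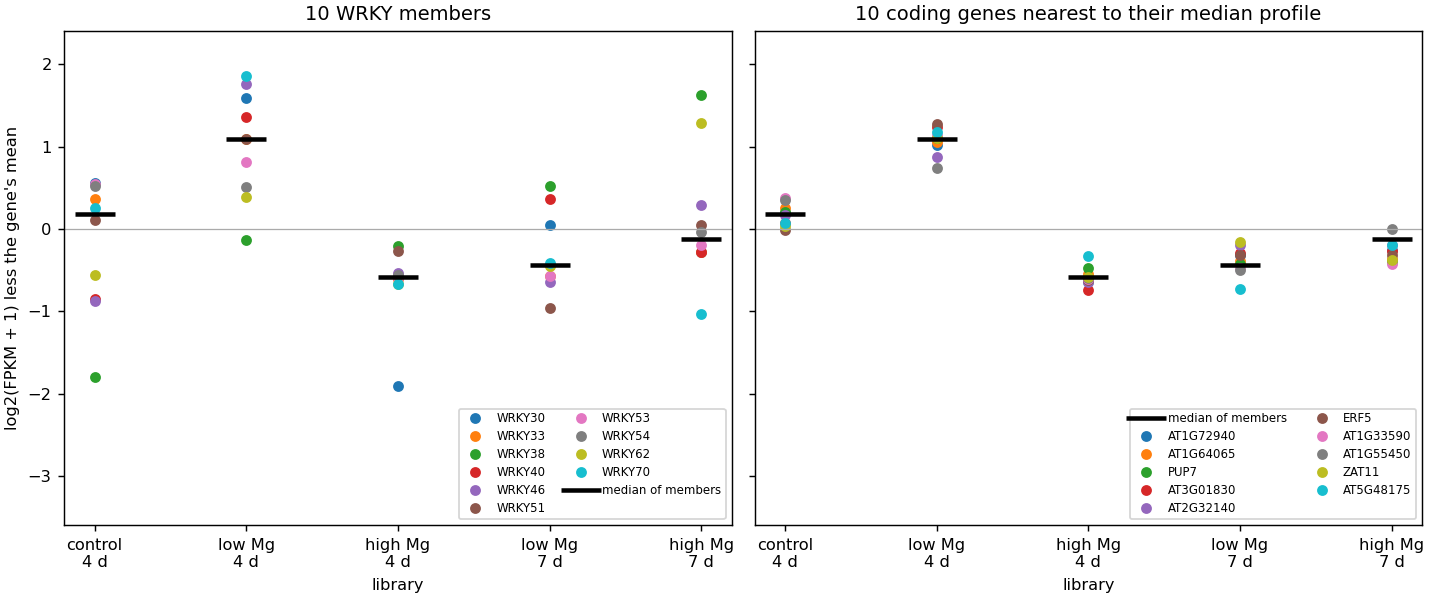
Log2(FPKM + 1) less the gene's own mean (vertical axis) in the 5 libraries (horizontal axis, 1 library each), for the 10 WRKY genes on the left and the 10 nearest other coding genes on the right; points are genes and black bars the median of the 10 WRKY genes. That median is highest in low Mg at 4 d (1.09) and lowest in high Mg at 4 d (-0.59), on the scale as deposited. WRKY38 and WRKY62 are highest in high Mg at 7 d on that scale. TPM rescaling, which raises most genes at 7 d against 4 d, would put most of the 10 highest in high Mg at 7 d.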

How the data were processed

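The authors deposited expression values per locus for 5 libraries, as 1 table per sample and a matrix of all 5, and the 33559 values of each sample's table were identical to its column in the matrix. Per the submitters' processing notes, the genome was TAIR10 throughout, with Cufflinks 2.1.1 and TopHat2 2.0.8 named for the samples of 4 d. The aligner of the 7-d samples is not given in the sources used here. The deposited values were taken as FPKM from that tool list and from the values, as no label names the unit.

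Members and gene lists were chosen with earlier results of these data known. Ratios were log2((a + 1)/(b + 1)) of FPKM, with Python 3.11.15, pandas 2.3.3 and scipy 1.17.1. The 1 was added after any rescaling. Folds given beside levels are plain ratios of FPKM. Nuclear genes with 5 FPKM or more in at least 1 library compared were kept, and 2-fold was the size called. With 1 library per group no p-value was computed. Fragments were estimated from the value of 1 fragment in coding genes with exons of 2000 nt or more, giving approximate depths of 6971124 to 12950700 fragments. Intervals are exact binomial (95%) and cover counting error only. The step that calls ratios was tested on simulated data. Named beside the 10 members were the 5 highest and 5 lowest other WRKY genes at 2-fold per comparison, up to 3 per list and the 10 nearest profiles, while further list genes were chosen after their values were seen. Symbols, positions and sequences came from RefSeq TAIR10.1, and protein sequences were not used here. Alternatives were other pseudocounts, filters, scalings and sizes.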

Additional observations from a re-analysis of the deposited data

Results flagged for a closer look

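WRKY62 and WRKY51 were at least 2-fold apart in opposite directions on the 2 days. For WRKY62 the log2 ratio of low to high Mg was 1.06 at 4 d and -1.74 at 7 d, a difference of -2.79. For WRKY51 it was 1.36 at 4 d and -1.01 at 7 d, a difference of -2.37. Under TPM rescaling the ratio at 4 d was 0.27 for WRKY62 and 0.55 for WRKY51, short of 2-fold. With a pseudocount of 5 FPKM WRKY62 was at 0.65 at 4 d and WRKY51 at -0.88 at 7 d. The signs stayed opposite in both settings. On the deposited scale such a turn was seen in 0.600% of 16678 nuclear genes. Each ratio rests on 1 library per group, so the differences between days were not tested.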

How the results depend on the processing

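Of 376 values of single members under 7 alternatives, 323 kept both their direction and their side of 2-fold and 359 kept their direction. A filter leaves a ratio unchanged and a pseudocount cannot change its sign, so direction could turn only under the scalings. Of 56 values each, 14 turned under TPM rescaling, 1 under median-of-ratios scaling and 2 without AT2G01021. Of the 17 that turned, 14 did so under TPM rescaling, 6 of them values past 2-fold: WRKY53 and WRKY54 in high Mg against the control (0.0872 and 0.14), and WRKY30, WRKY33, WRKY51 and WRKY53 in low Mg at 7 d against 4 d (0.51, 0.50, 0.0818 and 0.70). That rescaling moved the members' median to 0.90 with 4 calls in low against high Mg at 4 d (from 1.71 and 9), to 1.24 in low Mg against the control (from 0.98), to 0.22 with 1 call in high Mg against the control (from -0.95 and 3), to 0.60 with 3 calls in low Mg between days (from -1.46 and 6) and to 1.80 with 9 calls in high Mg between days (from 0.46 and 3). Rescaling without AT2G01021 kept 51 of 56 member values in direction and side of 2-fold, and median-of-ratios scaling 55 of 56. These medians cover members that passed each filter. In low Mg against the control the median was 1.08 with a pseudocount of 0.1, and 1.01 with no filter or with one of 20 FPKM. In high Mg against the control it was -1.01 with that pseudocount and -1.02 with the filter of 20 FPKM. With a pseudocount of 5 the calls in high Mg against the control and at 7 d were 1 each, both lower, as 413 of 15962 and 317 of 15684 genes were. With the filter of 20 FPKM there was 1 call at 7 d, lower, as 254 of 8245 genes were. That filter left 0 in high Mg between days, where 396 of 9001 genes were higher and 1302 lower. At 1.5-fold they were 7 higher in low Mg against the control (4.78% of all genes), 5 lower in high Mg against it (7.89%), 6 at 7 d, of which 2 higher (6%) and 4 lower (7.38%), and 10 in low Mg between days, of which 1 higher (as 1634 of 16182 genes) and 9 lower (25.7%). Over all genes, TPM rescaling moved the split of 2-fold calls from 585 higher and 285 lower to 216 and 1396 in low against high Mg at 4 d, from 343 and 265 to 490 and 97 in low Mg against the control, from 402 and 612 to 8744 and 166 in high Mg against the control, from 652 and 2085 to 13966 and 216 in low Mg between days and from 747 and 1819 to 10014 and 241 in high Mg between days. Without AT2G01021 the last pair were 1617 and 1157, and 1869 and 841, and median-of-ratios scaling gave 931 and 1399 in high Mg between days. The rescaling without AT2G01021 was added after the data were seen. No paired analysis was possible because each group is 1 library. At the lowest depth, low Mg at 7 d, WRKY62 rests on about 30.8 fragments.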
